A study of Mus musculus with 2 samples.

Results

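Proliferating lymphocytes were the 373 of 25779 kept cells of mouse lymph node in which Mki67 and Top2a together had at least 3 unique molecular identifiers (UMIs, the tags that count single captured RNA molecules). Mki67 encodes the Ki-67 protein of dividing cells and Top2a the topoisomerase that untangles chromosomes before they separate, and the cells were chosen by the measured counts of these genes. The wild-type library (WT) held 210 of them among 12463 kept cells, and the library of the RPA1 conditional knockout (CKO) held 163 among 13316. Cells were kept from 500 UMIs and 200 genes upward, with no more than 10% of UMIs from mitochondrial genes. A cycling cell was placed among T cells when Cd3d, Cd3e and Cd3g summed to at least 2 UMIs with no Cd79a, and among B cells when it had at least 2 Cd79a UMIs and no Cd3e. The rest either carried genes of both lineages, called mixed here, or of neither.

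The study compared lymph node immune cells of wild-type C57BL/6 mice with those of C57BL/6 mice that carry a conditional knockout of Rpa1, under a title on RPA1 in T cells. Each genotype gave 1 droplet library made with a 3' gene expression kit. The labels give no Cre driver, no deleted exons, no age and no number of animals, so neither the cells meant to lose Rpa1 nor any pooling can be stated. With 1 library per genotype no difference below has a replicate check or a test. Intervals of shares, levels and ratios are 95% intervals that cover counting error only, and genotype, animal and library cannot be told apart.

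RPA1 is the large subunit of replication protein A, which together with RPA2 and RPA3 coats the single-stranded DNA exposed when a replication fork opens, and which brings the checkpoint kinase ATR to stalled forks. A lymphocyte that enters the cycle turns on S phase genes through E2F factors and later turns on genes of G2 and mitosis, many through an element called CHR. In lymph nodes the dividing cells include activated T cells, germinal centre B cells, which mutate and switch their immunoglobulin genes, and plasmablasts. Damaged or stalled DNA activates p53, whose targets include Cdkn1a, the inhibitor p21 of cyclin-dependent kinases.

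The libraries held 84813609 UMIs in 12769 barcodes (WT) and 76200586 UMIs in 13754 barcodes (CKO). They shared 56 barcodes, of which 0 were cycling cells. Cycling T cells had a median of 14963 UMIs in WT and 14355.5 in CKO, and cycling B cells had 16028.5 and 12024. The other T and B cells had medians from 3923 to 6345.5 UMIs, so cycling cells were the more deeply sampled ones in both libraries. Of the cells with the highest Scrublet scores, a measure of likeness to 2 cells in 1 droplet, 4 WT and 2 CKO cells were cycling T cells, 0 and 3 were cycling B cells, and 15 and 20 were cycling mixed cells. The lineage labels were checked against summed markers, of which the gates had used a few: 13 T cell genes stood at 70.7 (WT) and 53.4 (CKO) UMIs per 10000 in cycling T cells and at 1.79 and 1.52 in cycling B cells. The 14 B cell genes stood at 69.2 and 154 in cycling B cells and at 4.10 and 3.52 in cycling T cells.

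The targeted gene was measured first. Rpa1 had 134 UMIs in 61 of the 115 WT cycling T cells, or 68.6 CPM (UMIs scaled to the same total for every group of cells, 57.4 to 81.2). It had 63 UMIs in 33 of the 62 CKO cells, or 57.1 CPM (43.9 to 73.1). The ratio of CKO to WT was 0.833 (0.608 to 1.13), an interval that includes 1. With at least 5 UMIs of Mki67 and Top2a in place of 3, the log2 ratio was -0.49 (-0.99 to -0.01), and with each cell scaled to the same total it was 0.047. In T cells that did not cycle, Rpa1 was lower in CKO, at 24.9 against 39.3 CPM (ratio 0.634, 0.576 to 0.698). Cycling T cells with Cd4 but neither Cd8 nor Trdc had 53 UMIs in WT and 19 in CKO, or 74.9 and 49.8 CPM. Those with Cd8 but neither Cd4 nor Trdc had 56 and 15 UMIs, or 64.9 and 67.7 CPM. No interval was made for these small counts, and the difference between the subsets was not tested. A 3' read can lie outside a deleted exon, so these counts do not check the deletion. Rpa2, the middle subunit, was higher in CKO cycling T cells, at 103 against 65.5 CPM (ratio 1.58, 1.22 to 2.05). With at least 5 UMIs its interval included no change, at a log2 ratio of 0.38 (-0.03 to 0.79). Rpa3, the small subunit, stood at 106 CPM in WT and 127 in CKO, a ratio of 1.19 (0.956 to 1.49). Cycling B cells had 59.3 CPM of Rpa1 in WT and 55.9 in CKO, a ratio of 0.942 (0.579 to 1.51), with intervals that include 1 for Rpa2 and Rpa3 as well.

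The first question was which lineages cycled. A smaller share of B cells cycled in CKO: 42 of 2825 B cells in WT, or 1.49% (1.07 to 2.0), and 35 of 7830 in CKO, or 0.447% (0.312 to 0.621). The difference was -1.04 percentage points (-1.57 to -0.617). Of T cells, 115 of 8189 cycled in WT, or 1.40% (1.16 to 1.68), and 62 of 3555 in CKO, or 1.74% (1.34 to 2.23). That difference of 0.34 points had an interval that includes 0 (-0.132 to 0.878). It was 0.499 points (0.0954 to 0.974) with at least 5 UMIs of Mki67 and Top2a, and 0.770 points (0.364 to 1.25) when at least 3 UMIs of Pclaf, Ccna2 and Rrm2 chose the cells. When each cell was thinned to 2000 UMIs the T cell difference changed sign, to -0.419 points (-1.05 to 0.273), and the B cell difference was -0.644 points (-1.34 to -0.0388). Mixed cells cycled at 3.42% in WT and 3.45% in CKO, and cells of neither lineage at 5.0% and 3.30%.

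**Figure D1:**
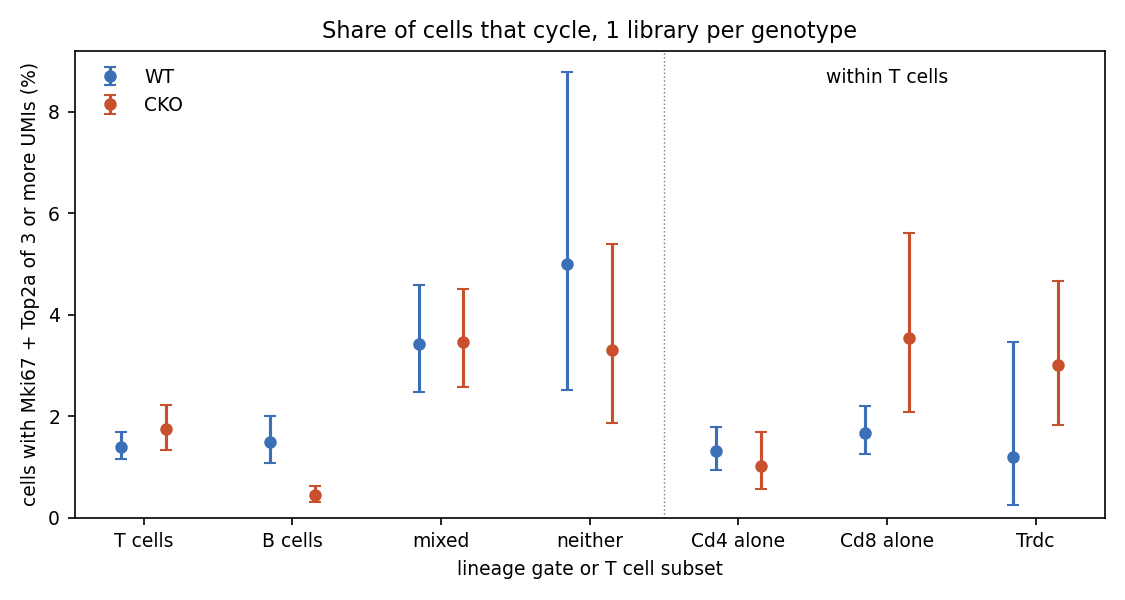
Percent of kept cells with at least 3 UMIs of Mki67 and Top2a (y axis) by lineage gate and, right of the dotted line, by T cell subset, in the WT (blue) and CKO (red) libraries, with exact binomial 95% intervals as bars. The B cell share of 0.447% in CKO lies below that of 1.49% in WT with bars that do not overlap, and the bars overlap for T cells.

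The CKO library held a larger share of B cells and a smaller share of T cells. B cells were 22.7% of kept cells in WT and 58.8% in CKO, and T cells 65.7% and 26.7%. Among cycling cells the B cell share stood at 20% in WT and 21.5% in CKO. The T cell share of cycling cells was 54.8% in WT and 38.0% in CKO, and the mixed share was 20% and 31.3%. Fewer T cells in a node and more B cells in it give the same percentages, and these libraries cannot tell them apart.

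The count that chose the cells differed between the libraries. Its median was 7 in WT and 16.5 in CKO cycling T cells, and 21 and 5 in cycling B cells. Cells just inside the limit, with exactly 3 UMIs, numbered 34 WT and 7 CKO T cells and 5 WT and 12 CKO B cells. Cells just outside, with 2, numbered 112 and 39 T cells and 14 and 55 B cells. Of the 12 CKO B cells at 3 UMIs, 0 had a UMI of Pclaf, Ccna2 or Rrm2, the other proliferation markers. From 6 UMIs upward those markers were found in 89.4% of WT and 95.8% of CKO T cells and in 97.1% and 87.5% of B cells. With this stricter limit, which was chosen after seeing the data, 66 WT T cells (0.806%) and 48 CKO T cells (1.35%) remained, a difference of 0.544 points (0.148 to 1.01). For B cells it left 34 (1.20%) and 16 (0.204%), a difference of -0.999 points (-1.48 to -0.635).

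In unthinned counts a larger share of Cd8 T cells cycled in CKO, and cells with Trdc made up more of its cycling T cells. Trdc encodes the constant part of the delta chain of gamma delta T cell receptors. Cells with Cd8a or Cd8b1 and neither Cd4 nor Trdc cycled at 51 of 3047 in WT, or 1.67%, and at 17 of 480 in CKO, or 3.54%, a difference of 1.87 points (0.450 to 3.96). Cells with Trdc cycled at 3 of 251, or 1.20%, and at 19 of 632, or 3.01%, a difference of 1.81 points whose interval includes 0 (-0.690 to 3.63). Cells with Cd4 alone cycled at 39 of 2963, or 1.32%, and at 15 of 1462, or 1.03%, a difference of -0.290 points (-0.916 to 0.458). Cycling T cells were the deeper ones, and the cycling shares of these subsets were not recomputed after thinning. Over all T cells the difference changed sign then, to -0.419 points. These Cd8 cells without Cd4 and Trdc were 44.3% of cycling T cells in WT and 27.4% in CKO. They were 37.1% and 13.3% of the T cells that did not cycle. When cells with Cd4 or Trdc were included, the share of cycling T cells with a Cd8a or Cd8b1 UMI showed no clear difference. CKO minus WT was -3.96 points (-18.8 to 11.3) after thinning and 4.89 points (-10.3 to 19.4) in unthinned counts. Both intervals include 0, so the direction of this difference cannot be stated.

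Cells with Trdc made up 2.61% of cycling T cells in WT and 30.6% in CKO. Among T cells that did not cycle they made up 3.07% and 17.5%. After thinning to 2000 UMIs, Trdc was found in 0 of 114 WT and 7 of 62 CKO cycling T cells. In B cells, which should lack it, Trdc was found in 0 of 42 WT and 2 of 35 CKO cycling cells, and in 3 of 2783 and 45 of 7795 others. The gamma subunit genes were higher in CKO cycling T cells too, Tcrg-C1 at 3.07 and 27.2 CPM and Tcrg-C2 at 13.8 and 37.2 CPM. Results below that rest on these cells are given with and without them, a comparison added after seeing the data.

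S phase genes were higher in CKO cycling T cells. Levels of single genes are in CPM, and a gene was called higher or lower when the 95% interval of its CKO to WT ratio lay wholly above or below 1. Of 44 S phase genes, all measured at a mean of at least 5 CPM, 38 were higher and 0 lower, where 12.1% of all 8993 measured genes were higher and 7.28% lower. The median log2 ratio of the list was 0.53 (0.48 to 0.59), against 0.06 over all measured genes. The bracketed range after a list's median is an order-statistic 95% range over its genes, which are not replicates. The 44 genes summed to 51.5 UMIs per 10000 in WT and 72.9 in CKO, a ratio of 1.42 (1.38 to 1.46). Cells at the limit weighed on these sums: the 34 WT T cells with exactly 3 UMIs of Mki67 and Top2a had S phase genes at 18.1 and G2 and mitosis genes at 27.1 UMIs per 10000, and the 7 CKO cells had 53.7 and 30.3. T cells with no UMI of either marker had 8.47 and 17.1 in WT and 9.36 and 18.2 in CKO. With at least 6 UMIs the S phase median was 0.35.

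Ccne2, the cyclin E2 that starts S phase with CDK2, stood at 20.5 CPM in WT and 56.2 in CKO, a ratio of 2.75 (1.82 to 4.2). Cdc6, which loads the MCM helicase at origins, stood at 44.5 and 97.9 CPM (ratio 2.20, 1.64 to 2.95). Cdc45, which joins MCM in the active helicase, stood at 35.3 and 70.7 CPM (ratio 2.0, 1.43 to 2.81). Dtl, the part of a ubiquitin ligase that clears Cdt1 and p21 in S phase, stood at 86.0 and 157 CPM (ratio 1.82, 1.47 to 2.27). These differences were found across many cells, Dtl in 58 WT and 50 CKO cells and Cdc6 in 34 and 38. Pcna, the sliding clamp of the polymerases, was the most abundant of these, at 390 CPM in WT and 520 in CKO, a ratio of 1.33 (1.19 to 1.49). At the low end Rrm1, the large subunit of ribonucleotide reductase, stood at 177 and 197 CPM (ratio 1.11, 0.934 to 1.32). All 9 MCM helicase genes were measured, and 6 were higher and 0 lower.

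Genes of G2 and mitosis differed less. Of 55 genes, all measured, 15 were higher and 4 lower in CKO cycling T cells, with a median log2 ratio of 0.11 (0.01 to 0.22). Summed, they stood at 97.4 UMIs per 10000 in WT and 110 in CKO, a ratio of 1.13 (1.11 to 1.16). Plk1, the mitotic kinase, stood at 46.6 and 70.7 CPM (ratio 1.52, 1.11 to 2.08). Cenpf, a kinetochore protein, stood at 261 and 218 CPM (ratio 0.832, 0.711 to 0.972). Smc4, a condensin subunit, stood at 600 and 500 CPM (ratio 0.833, 0.752 to 0.923). Without cells that had a Trdc UMI the direction of the list turned, with 5 genes higher and 13 lower and a median of -0.14, while 41 of the 44 S phase genes were higher and the S phase median was 0.67. The G2 and mitosis median was -0.02 with at least 5 UMIs of Mki67 and Top2a and -0.05 with at least 6.

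In T cells S phase genes took a larger share of the cycle transcripts in CKO. They gave 34.6% of all S and G2 or mitosis UMIs in WT cycling T cells and 39.8% in CKO, a difference of 5.25 points (4.38 to 6.12). Without Trdc cells the shares were 35.1% and 47.1%. Cells in which G2 and mitosis genes gave at least 2 of every 3 of these UMIs numbered 52 of 115 in WT, or 45.2%, and 16 of 62 in CKO, or 25.8%, a difference of -19.4 points (-32.4 to -4.47). Cells that leaned as far to S phase numbered 2 and 6. Such cells are ranges of a score and no cell type, and 37 WT and 27 CKO cells lay within 0.05 of a limit. T cells with no UMI of Mki67 or Top2a had S phase genes at 8.47 and G2 and mitosis genes at 17.1 in WT. In CKO they had 9.36 and 18.2. Both lie near the limit for leaning to G2 and mitosis, so cells with few cycle UMIs can pass it. Exactly 3 UMIs of the markers were held by 34 WT and 7 CKO cells, and the counts leaning to G2 and mitosis were not recomputed without them. Mixed cells showed S phase shares of 34.8% in WT and 47.9% in CKO, cycling B cells 33.5% and 37.9%, and the 11 and 15 cells of neither lineage 33.4% and 27.3%.

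**Figure D2:**
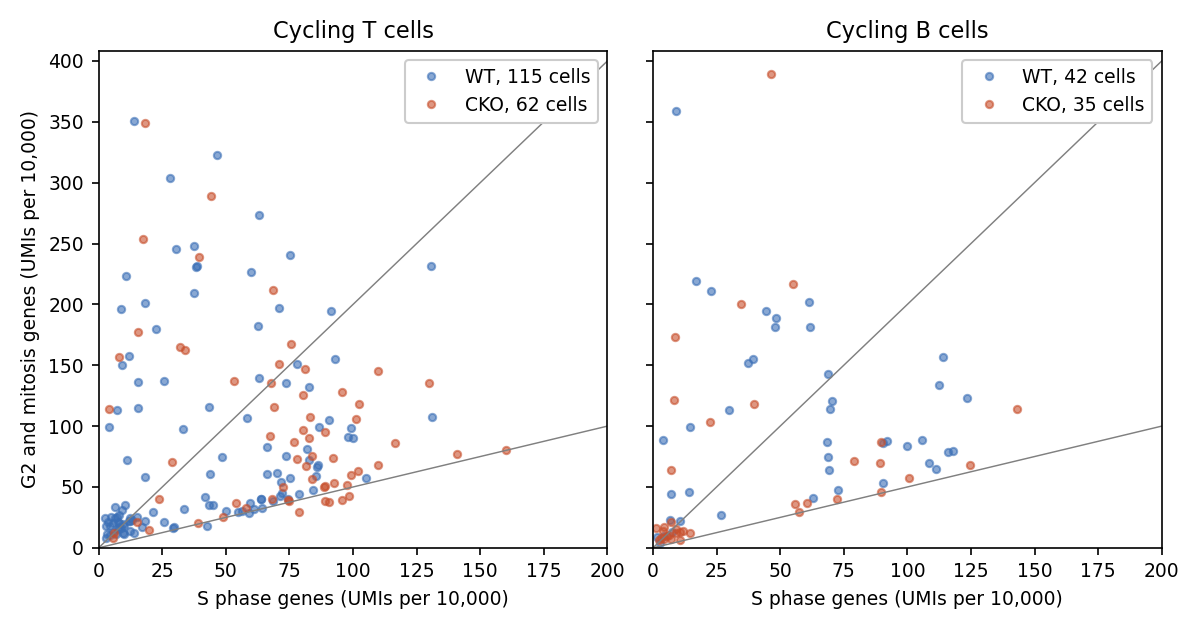
S phase genes (x axis) against G2 and mitosis genes (y axis), in UMIs per 10000 UMIs of the cell, with 1 point per cycling T cell (left) or B cell (right) of WT (blue) and CKO (red); the grey lines mark cells with 2 of 3 cycle UMIs from G2 and mitosis genes (upper) or from S phase genes (lower). Of the T cells, 52 of 115 in WT and 16 of 62 in CKO lie on or above the upper line. Near the origin lie the cells with few cycle UMIs, more of them WT among T cells and more of them CKO among B cells.

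Promoters of S phase genes are known for E2F letters and those of mitotic genes for CHR and CCAAT letters. The windows below, shown so that both kinds can be compared, run from 250 bases before to 50 bases after the RefSeq start site (build GRCm38.p6), read 5′ to 3′ on the strand of the gene. They show the 3 S phase genes with the highest and the 2 G2 and mitosis genes with the lowest ratios in cycling T cells among genes of at least 50 CPM in 1 library that have a single window. Capitals mark matches on either strand to the E2F letters TTTCCCGC, TTTGGCGC, TTTCGCGC or TTTGCCGC, to the CHR letters TTTGAA or TTCGAA, and to the CCAAT box, and no match to one motif overlaps a match to another in them.
Cdc6 (chr11:98907901-98908200, plus strand): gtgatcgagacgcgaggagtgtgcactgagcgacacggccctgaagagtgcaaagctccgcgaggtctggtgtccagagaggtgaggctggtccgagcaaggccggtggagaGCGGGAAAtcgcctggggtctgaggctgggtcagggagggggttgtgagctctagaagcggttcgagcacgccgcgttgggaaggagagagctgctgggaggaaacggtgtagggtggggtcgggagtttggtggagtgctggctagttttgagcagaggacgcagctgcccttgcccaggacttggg
Cdc45 (chr16:18811923-18812222, minus strand): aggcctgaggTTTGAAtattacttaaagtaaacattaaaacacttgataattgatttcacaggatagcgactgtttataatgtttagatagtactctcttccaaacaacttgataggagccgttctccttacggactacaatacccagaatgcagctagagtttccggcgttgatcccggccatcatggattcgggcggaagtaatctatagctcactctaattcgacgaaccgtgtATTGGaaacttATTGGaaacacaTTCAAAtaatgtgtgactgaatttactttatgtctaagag
Dtl (chr1:191575495-191575794, minus strand): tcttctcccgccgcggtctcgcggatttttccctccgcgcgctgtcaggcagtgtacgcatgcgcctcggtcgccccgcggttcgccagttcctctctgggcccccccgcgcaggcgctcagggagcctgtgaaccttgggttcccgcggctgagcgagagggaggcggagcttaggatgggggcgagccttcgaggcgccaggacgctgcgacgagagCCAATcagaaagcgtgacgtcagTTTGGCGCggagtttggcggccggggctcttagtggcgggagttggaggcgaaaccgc
Ckap2l (chr2:129297163-129297462, minus strand): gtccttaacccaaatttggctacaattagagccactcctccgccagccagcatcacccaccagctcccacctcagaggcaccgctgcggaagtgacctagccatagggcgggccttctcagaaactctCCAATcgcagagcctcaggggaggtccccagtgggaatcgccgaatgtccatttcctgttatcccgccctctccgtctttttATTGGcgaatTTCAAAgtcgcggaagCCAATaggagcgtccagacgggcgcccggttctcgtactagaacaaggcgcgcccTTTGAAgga
Cenpf (chr1:189688037-189688336, minus strand): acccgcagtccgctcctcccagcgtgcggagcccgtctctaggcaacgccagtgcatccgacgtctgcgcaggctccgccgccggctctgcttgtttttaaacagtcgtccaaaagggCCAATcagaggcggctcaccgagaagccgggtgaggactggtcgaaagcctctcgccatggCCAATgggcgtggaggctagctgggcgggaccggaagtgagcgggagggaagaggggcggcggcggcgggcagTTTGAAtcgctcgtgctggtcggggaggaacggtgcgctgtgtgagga
Cdc6 and Dtl each held 1 E2F match and no CHR match, Cdc45 held 2 CHR and 2 CCAAT matches, and Ckap2l and Cenpf held 2 and 1 CHR matches beside 3 and 2 CCAAT matches. Across the lists, 14 of the 32 S phase genes with a window (43.8%) held E2F letters, as did 3 of 47 G2 and mitosis genes (6.38%) and 2.61% of 27025 genes with a window. CHR letters were in 7 of 32 S phase genes (21.9%), 35 of 47 G2 and mitosis genes (74.5%) and 21.7% of all. The CCAAT box was in 71.9%, 76.6% and 41.1%. A match is a description of letters and does not show binding.

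Regulators of the entry into S phase, a list of genes that promote it and genes that inhibit it, differed as well. Of 22 measured regulators 11 were higher and 3 lower. The highest ratio of the list was that of the inhibitor gene Cdkn1a, and the lowest that of Ccnd1, the gene of cyclin D1. E2f3, an activator of S phase genes, stood at 31.2 CPM in WT and 74.4 in CKO, and Ccne1, the partner of cyclin E2, at 46.6 and 84.3. Cdkn1b, the inhibitor p27 of resting cells, stood at 137 and 95.2 CPM (ratio 0.697, 0.551 to 0.877). Chek1, the kinase that ATR activates at stalled forks, stood at 36.3 and 70.7 CPM (ratio 1.95, 1.39 to 2.72). Brca1 and Brca2, which protect and repair forks, stood at 36.8 and 59.8 CPM and at 44.5 and 69.8 CPM. Of 30 replication stress and repair genes 7 were higher and 0 lower, with a median log2 ratio of 0.33 (0.24 to 0.44).

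Of the 3256 genes that reached 50 CPM in a library, 48 (1.47%) were higher in CKO cycling T cells by 2-fold or more with an interval above 1. Another 37 (1.14%) were lower by as much with an interval below 1. The highest ratios belonged to Phlda3, Cdkn1a, Gzmb, Lgals3, Gzma, Gzmk, Car2, Coro2a, Pmm1 and Lgals1, and the lowest to Ccl3, Ccl4, Ctla4, Tbc1d4, Izumo1r, Dapl1, Il6st, Maf, Nt5e and Ifi208. The chemokine genes Ccl3 and Ccl4 owed 92 of 108 and 114 of 175 WT UMIs to 1 cell each.

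p53 targets led the genes that were higher. Of 20 measured targets 12 were higher and 1 lower, with a median log2 ratio of 0.86 (0.59 to 1.67). The sum of the 23 listed targets was 5.47 UMIs per 10000 in WT and 9.91 in CKO, but the median cell had 5.86 and 5.69 and the highest 21.3 and 69.2. Without the highest cell of each gene the median log2 ratio was 0.61 (0.09 to 1.26). In T cells that did not cycle, 4 of 15 were higher and 3 lower, with a median of 0.04. In those cells 34.1% of all 8637 measured genes were higher and 9.76% lower. Bax, which permeabilises mitochondria in apoptosis, stood at 126 CPM in 83 WT cells and 268 CPM in 53 CKO cells, a ratio of 2.13 (1.79 to 2.54). Mdm2, the ligase that degrades p53, stood at 34.3 and 71.6 CPM (ratio 2.09, 1.49 to 2.94). Bbc3 and Pmaip1, the apoptosis genes that encode PUMA and NOXA, stood at 9.72 and 30.8 CPM and at 7.16 and 23.6 CPM. Trp53inp1 was the target that was lower, at 63.4 and 39.9 CPM (ratio 0.629, 0.435 to 0.894). Without Trdc cells 12 were higher and 1 lower, with a median of 1.13.

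Cdkn1a and Phlda3, which inhibits AKT, came from few cells. Cdkn1a had 8 UMIs in 1 of 115 WT cycling T cells and 86 UMIs in 7 of 62 CKO cells, or 4.09 and 78.0 CPM (ratio 19.1, 9.25 to 45.5). Phlda3 had 5 UMIs in 5 WT cells and 59 UMIs in 7 CKO cells, or 2.56 and 53.5 CPM (ratio 20.9, 8.47 to 66.8). The same cells carried both: 1 WT and 6 CKO cells had a UMI of each. None of the 19 CKO cycling T cells with Trdc had a UMI of Cdkn1a.

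Mixed cycling cells showed the same pair of genes. Cdkn1a was found in 1 of 42 WT and 11 of 51 CKO cells, Phlda3 in 2 and 11, and both in 0 and 9. Over T and mixed cells together, both were found in 1 of 157 WT cells, or 0.637% (0.0161 to 3.5), and 15 of 113 CKO cells, or 13.3% (7.62 to 20.9). Among T cells that did not cycle, with median depths of 6345.5 and 5763 UMIs, Cdkn1a was found in 20 of 8074 WT cells and 22 of 3493 CKO cells. In cycling B cells it was found in 3 of 42 WT and 0 of 35 CKO cells. After thinning to 2000 UMIs it was found in 1 of 114 WT and 3 of 62 CKO cycling T cells. When T cells were instead those with at least 2 Cd3d, Cd3e and Cd3g UMIs and at least 4 times as many of these as of Cd79a and Cd79b, Cdkn1a was found in 1 of 123 WT and 10 of 72 CKO cycling T cells (ratio of CPM 19.7, 9.58 to 46.9).

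The CKO cells with most Cdkn1a, 3 T cells and 1 mixed cell, also carried many UMIs of cycle genes. The mixed cell, with 29 Cdkn1a UMIs, had 13 of Phlda3, 22 of Bax and 37 of Mki67 and Top2a. The next had 25, 24, 36 and 62, in the same order. In these 4 cells Mki67 and Top2a together ranged from 37 to 62 UMIs, and S phase genes from 154 to 347. The cells held 14004 to 26741 UMIs in all, where the median CKO cycling T cell held 14355.5. Per 10000 UMIs, S phase genes stood at 95.8, 110 and 130 in the 3 T cells, against a median of 77.4 in CKO cycling T cells. The mixed cell had 201 S phase UMIs among 25666. In the other CKO T cells with Cdkn1a, S phase genes stood at 82.9, 68.8, 67.5 and 89.1 per 10000 UMIs, on both sides of that median. The 1 WT T cell with Cdkn1a had 8 of its UMIs, 1 of Phlda3, 1 of Bax and 75 of Mki67 and Top2a. Of the 18 CKO T and mixed cells with Cdkn1a, 2 were among the highest Scrublet scores.

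**Figure D3:**
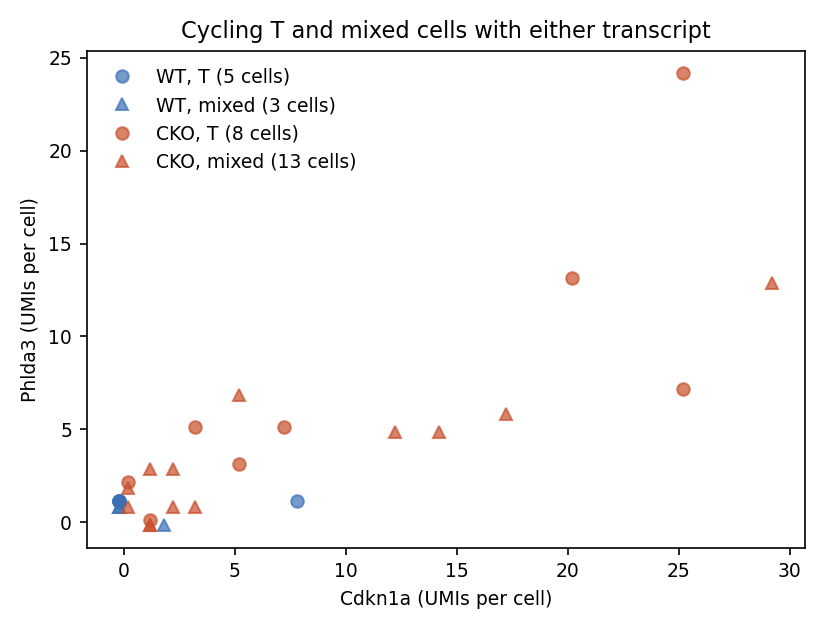
UMIs of Cdkn1a (x axis) and Phlda3 (y axis) per cell in cycling T cells (circles) and mixed cells (triangles) that had either gene, WT in blue and CKO in red, with points set slightly apart so that they can be told apart. Of 113 CKO cells 15 carried both genes and of 157 WT cells 1 did.

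Effector genes were higher in CKO cycling T cells, and less so without the cells that had Trdc. Of 23 effector genes, all measured, 17 were higher and 1 lower, with a median log2 ratio of 1.09 (0.69 to 1.58). Gzma and Gzmb, the granzymes that cytotoxic cells release into their targets, stood at 239 and 1593 CPM and at 25.6 and 229 CPM. Gzma was found in 4 WT and 16 CKO cells, and 9 of these 16 were among the 19 cells with Trdc. Those 9 cells held 1248 of the 1757 Gzma UMIs. Klrg1, a receptor of late effector cells, stood at 4.61 and 49.9 CPM, in 3 WT and 13 CKO cells. Ccl5, a chemokine of memory and effector cells, stood at 582 and 1738 CPM. Without Trdc cells 10 effector genes were higher and 3 lower, and the median was 0.17 (-0.08 to 0.78). Of 10 natural killer cell genes, 7 were higher and 1 lower, and their summed level was 4.13 per 10000 UMIs in WT and 19.0 in CKO. All 10 of these genes had a UMI in each library, and in single cells their sum ranged from 0 to 332 per 10000 UMIs in WT and from 0 to 149 in CKO. The part of natural killer cells in the effector genes was not tested. Without Trdc cells 1 of 9 measured natural killer cell genes was higher and 4 were lower.

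Most measured genes of naive and regulatory T cells were lower. Of 11 naive genes 0 were higher and 8 lower, with a median log2 ratio of -0.54 (-0.73 to -0.17). Dapl1 stood at 242 CPM in WT and 65.3 in CKO, a ratio of 0.270 (0.208 to 0.346). Lef1 and Tcf7, the transcription factors of resting T cells, stood at 271 and 163 CPM and at 292 and 179 CPM. Ccr7, which brings T cells into lymph nodes, stood at 156 and 107 CPM. Klf2 was an exception, at 379 and 392 CPM. Without Trdc cells 0 naive genes were higher and 6 lower, with a median of -0.39.

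Of 11 measured regulatory T cell genes 6 were lower and 2 higher in cycling cells, with a median of -0.94 (-1.70 to 0.30), and without Trdc cells 6 were lower and 1 higher, with a median of -0.57. In T cells that did not cycle, 11 of 12 were higher and 1 lower, with a median of 0.78. Foxp3, the defining factor, stood at 25.6 CPM in 13 of 115 WT cells and 7.25 CPM in 6 of 62 CKO cells, a difference in the share of cells of -1.63 points (-10.4 to 9.25). Ctla4, the inhibitory receptor, stood at 83.4 and 19.9 CPM, and Maf, a factor of helper and regulatory cells, at 166 and 47.2 CPM. Interferon-stimulated genes also parted between cycling and other T cells. In other T cells 26 of 26 were higher in CKO, with a median of 0.78, and in cycling T cells 2 were higher and 7 lower, with a median of -0.13. That last median was 0.22 and 0.37 with at least 5 or 6 UMIs of Mki67 and Top2a. The difference between cycling and other T cells was not tested.

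**Figure D4:**
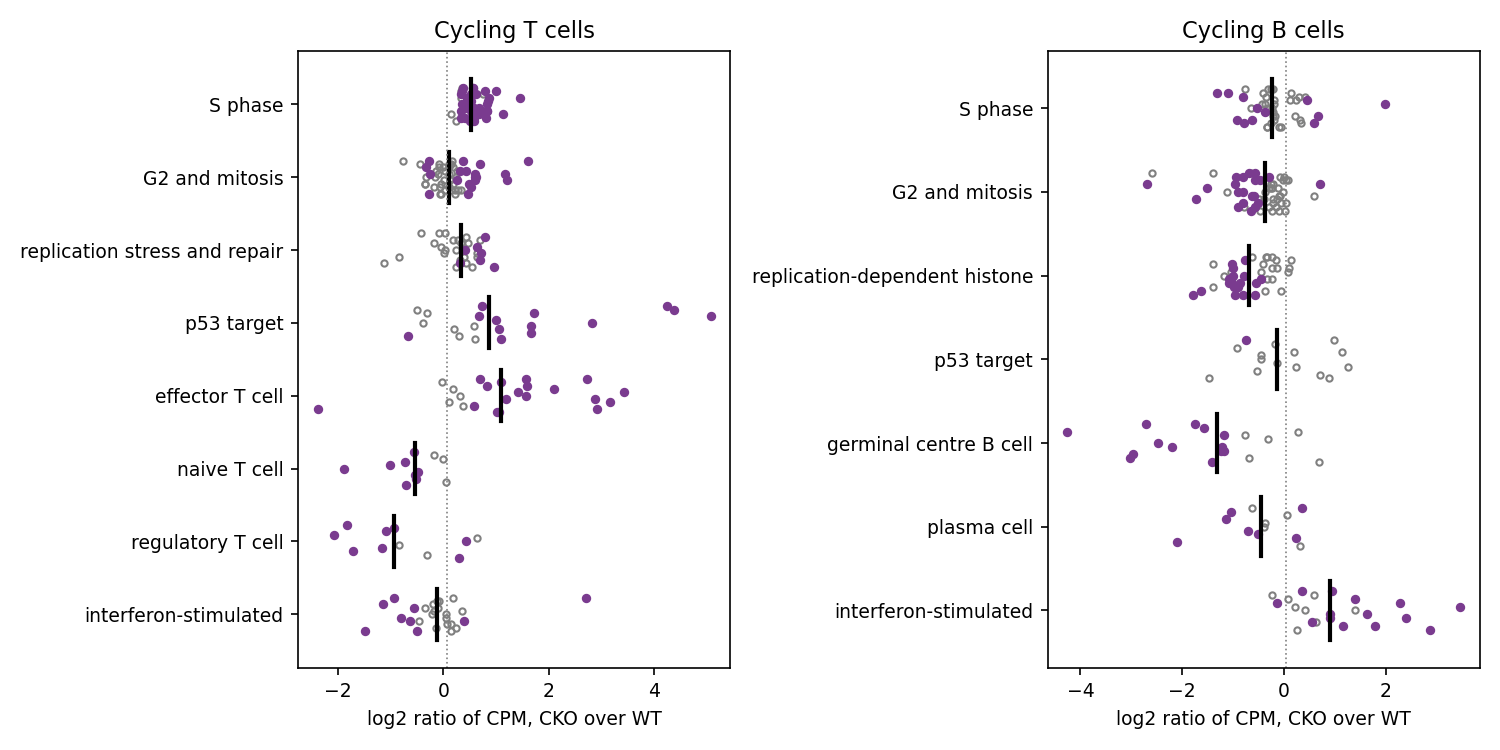
Log2 ratio of CPM, CKO over WT, in cycling T cells (left) and cycling B cells (right), with 1 point per measured gene of each list, filled where the 95% interval excludes no change; thick bars mark list medians and dotted lines the median of all measured genes. The T cell medians are 0.53 for S phase genes and 0.86 for p53 targets, and the B cell median for germinal centre genes is -1.32.

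Most cycling B cells of WT carried genes of germinal centre B cells, and most of those of CKO did not. Mef2b, a transcription factor known in germinal centre cells, was found in 28 of 42 WT cycling B cells, or 66.7% (50.5 to 80.4), and in 8 of 35 CKO cells, or 22.9% (10.4 to 40.1). Among B cells that did not cycle, at medians of 4035 and 3923 UMIs, it was found in 62 of 2783 and 106 of 7795. The WT cells were the deeper ones, with a median of 16028.5 UMIs against 12024. In cycling T cells, which should lack it, Mef2b was found in 0 of 115 WT and 0 of 62 CKO cells, at medians of 14963 and 14355.5 UMIs, which allows shares of cells with a UMI of up to 2.61% and 4.84%.

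Of 18 germinal centre genes, all measured, 0 were higher and 13 lower in CKO cycling B cells, with a median log2 ratio of -1.32 (-2.20 to -1.18). Of all 8804 genes measured in these cells, 8.95% were higher and 8.0% lower. Gcsam, a signalling adaptor of these cells, had 76 UMIs in 16 WT cells and 0 in CKO. With 3 UMIs entered for the CKO library its ratio was at most 0.0523. Fas, a death receptor, stood at 71.2 CPM in 23 WT cells and 8.73 in 3 CKO cells. Mybl1, a transcription factor of these cells, stood at 97.6 CPM in 22 cells and 17.5 CPM in 5. S1pr2, which holds B cells in the follicle, stood at 79.1 and 29.7 CPM, in 22 and 5 cells. Gpr183 and Cd83 were not lower, at 36.9 and 59.4 CPM and at 79.1 and 96.0 CPM, both with intervals that include 1. At 6 or more UMIs of Mki67 and Top2a the median of the list was -1.72.

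**Figure D5:**
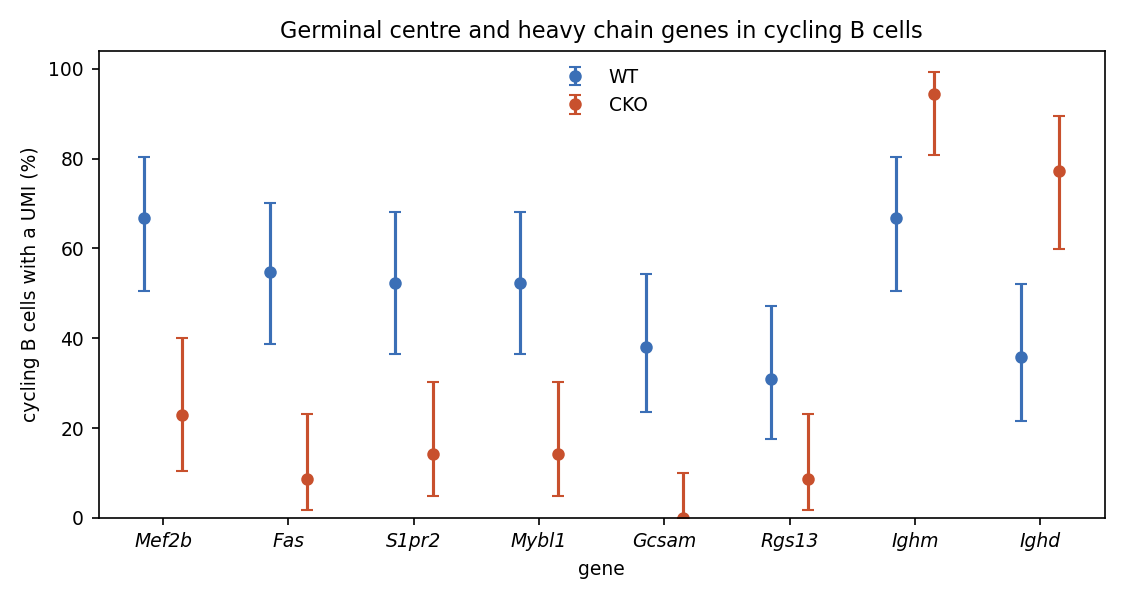
Percent of cycling B cells with a UMI (y axis) of 6 germinal centre genes and of Ighm and Ighd, in WT (blue, 42 cells) and CKO (red, 35 cells), with exact binomial 95% intervals as bars. Mef2b was found in 28 WT and 8 CKO cells, and Ighd in 15 and 27.

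Heavy chain genes differed as well. Ighm, the IgM chain of unswitched cells, was the leading heavy chain gene in 20 of 42 WT cycling B cells and 29 of 35 CKO cells. Ighg2b led in 12 WT and 2 CKO cells, Ighg1 in 4 and 0, Ighg2c in 3 and 2, and Igha in 3 and 1. Ighd, the IgD chain of naive B cells, was found in 15 WT and 27 CKO cells, at 68.6 and 253 CPM. In B cells that did not cycle it was found in 97.2% and 95.8%. The list of heavy chain genes was chosen after seeing the data.

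Some of the chosen B cells held much immunoglobulin RNA. Immunoglobulin genes held at least 10% of UMIs in 7 of 42 WT and 4 of 35 CKO cycling B cells, and in 6 of 2783 and 2 of 7795 others. In the WT cells Jchain, which joins secreted antibodies, reached 1092 UMIs and in the CKO cells 1654. Of these cells 3 CKO cells had only 3 to 7 UMIs of Mki67 and Top2a and S phase genes at 2.47 to 4.17 per 10000, below the 8.34 of CKO B cells with no UMI of either marker, and 3 WT cells had 3 or 4 UMIs and S phase genes at 1.63 to 4.41. Of 12 plasma cell genes, all measured, 2 were higher and 5 lower, with a median log2 ratio of -0.45 (-0.71 to 0.06), and without the cells of high immunoglobulin 4 of 9 were higher and 1 lower, with a median of 0.24. Without the cells of high immunoglobulin, 35 of 2812 WT and 31 of 7824 CKO B cells cycled, or 1.24% and 0.396%, and the germinal centre median was -1.70.

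Of 3203 genes at this level, 142 (4.43%) were higher in CKO cycling B cells by 2-fold or more and 132 (4.12%) were lower by as much. The lowest ratios included those of Gcsam, Slpi, Scimp, H1fx, Fas, H1f0, Basp1, Anxa2 and Mybl1. Slpi, a protease inhibitor, owed 1388 of its 1808 WT UMIs to 1 of 7 cells. The highest belonged to S100a4, Rora, Il7r, Egr3, Ccr2, S100a6, Ifit3, Slfn8, Dpp4 and Egr1. Of these S100a4, Rora and Ccr2 came from 2 CKO cells each and Il7r from 3. Egr3 and Egr1, early genes of receptor signalling, were found in 10 and 14 CKO cells and stood at 2.64 and 73.3 CPM and at 26.4 and 168 CPM. In B cells that did not cycle, Egr3 stood at 88.4 CPM in WT and 100 in CKO, and Egr1 at 90.3 and 87.8.

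Interferon-stimulated genes were higher in cycling B cells of CKO, as in its other B cells. Of 22 measured genes 13 were higher and 1 lower, with a median log2 ratio of 0.91 (0.41 to 1.41). That median was 0.55 with at least 6 UMIs of Mki67 and Top2a and 0.51 without the highest cell of each gene. Within each library these genes were lower in cycling than in other B cells, at median ratios of 0.456 in WT and 0.552 in CKO. In other B cells 22 of 24 were higher and 0 lower, with a median of 0.54, where 16.2% of all 8727 measured genes were higher and 8.12% lower. Ifit3, which binds viral RNA in complexes, stood at 10.5 CPM in 3 WT cells and 76.8 CPM in 14 CKO cells, a ratio of 7.28 (3.39 to 17.9). Isg15, a ubiquitin-like modifier, stood at 123 and 237 CPM (ratio 1.94, 1.48 to 2.55).

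Levels of cycle genes were lower in CKO cycling B cells. Of 44 S phase genes 4 were higher and 8 lower in CKO, with a median of -0.23 (-0.33 to -0.20). Of 55 G2 and mitosis genes 1 was higher and 20 lower, with a median of -0.36 (-0.56 to -0.24). The summed levels were 49.6 and 44.2 UMIs per 10000 for S phase genes and 98.6 and 72.4 for G2 and mitosis genes. The S phase share of these UMIs was the larger in CKO, as in T cells, at 33.5% in WT and 37.9% in CKO, a difference of 4.45 points (3.0 to 5.90). Of 38 measured histone genes, which are transcribed as DNA replicates, 0 were higher and 18 lower, with a median of -0.69 (-0.96 to -0.41). Hist1h3c stood at 848 and 402 CPM and Hist1h1b at 1697 and 932 CPM. The many histone copies are nearly alike in sequence, so their reads may be split among them. The 12 CKO B cells at the limit, with S phase genes at 7.09 and G2 and mitosis genes at 11.4 UMIs per 10000, belong to these sums. B cells with no UMI of Mki67 or Top2a stood at 8.34 and 15.4. With at least 6 UMIs the S phase median was -0.08 and the histone median -0.41. p53 targets did not stand apart, with 0 of 15 higher and 1 lower and a median of -0.13.

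Cycling cells were also set beside the other cells of their lineage, as a description, since cycle genes chose them and a gene had to pass in both libraries to be counted. In both libraries, 329 of 3076 genes (10.7%) were higher in cycling T cells by 2-fold or more, and 52 (1.69%) were lower by as much. For B cells these were 298 (9.46%) and 271 (8.60%) of 3151. Outside the lists of cycle genes, Esco2, which joins sister chromatids, stood at 93.6 CPM in cycling and 0.0361 in other T cells of WT and at 105 and 0.140 in CKO. Pclaf, a partner of PCNA, stood at 560 and 0.884 CPM in WT T cells and 832 and 1.26 in CKO. Eaf2, a gene of germinal centre B cells, was among the leading genes of B cells, at 397 CPM in cycling and 13.4 in other WT cells and 175 and 4.87 in CKO. Of 11 naive T cell genes 5 were lower in cycling T cells of both libraries.

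The cells of neither lineage were few. Of 11 such WT and 15 CKO cycling cells, 6 and 9 had a UMI of Ncr1, the natural killer cell receptor NKp46, and 5 and 7 of these also had Gzma. A further 3 and 2 had at least 50 UMIs of Cst3, abundant in dendritic cells, and 1 WT cell had 34 UMIs of Siglech, a marker of plasmacytoid dendritic cells. Cells with at least 5 UMIs of Rora and no Ncr1 numbered 1 and 2, and 2 CKO cells had none of these genes at those counts. The cells with Cst3 or Siglech go against the name lymphocyte, which is used here for the whole set.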

How the data were processed

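The files hold raw UMI counts per gene and cell barcode for 32285 genes, which the authors deposited with 1 filtered matrix per library. Cell Ranger 6.0.2 made them per the file headers, while the submitters' processing notes name Cell Ranger 5.0.0, Seurat 4.0.3 and mm10. The single-cell 3' kit is given per the labels' protocols.

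From these counts, UMIs were summed over the cells of each class and library with Python 3.11.15, numpy 2.4.6, pandas 2.3.3 and scipy 1.17.1. CPM is UMIs of a gene per 1000000 UMIs of those cells. Shares have exact Clopper-Pearson intervals, differences of shares Newcombe intervals, and levels exact Poisson intervals. Intervals of ratios are exact and come from the binomial distribution given both counts. A list's members were counted from a mean of 5 CPM, and a member at 0 in a library entered the median at 3 UMIs. Genes over the whole table were called from 50 CPM in a library at 2-fold with an interval excluding 1. Named genes were the 10 highest and 10 lowest ratios among genes of 50 CPM whose interval excluded 1, the 10 leading genes of cycling over other cells, and list members. Antigen receptor segments, mitochondrial, sex-linked and predicted genes and genes typical of the other lineage were left out of that rule, while members of the lists could be named. A few genes that meet it are not reported here.

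Thinning drew 2000 UMIs per cell and left out shallower cells. Scrublet (scanpy 1.11.5) marked the highest scores, at a doublet rate that grows with the barcodes of the library, and marked cells stayed in. The calls were tested on simulated data, drawn as Poisson counts of each group with no spread between cells. The simulation therefore cannot show how the calls behave where a few cells hold most UMIs of a gene. Promoter windows came from RefSeq. The members, the 33 lists and the alternatives were chosen with earlier results of these data known. No test was made, as each genotype has 1 library.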

Additional observations from a re-analysis of the deposited data

Results flagged for a closer look

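With at least 3 UMIs of Mki67 and Top2a, both lists of cycle genes had medians above 0 in T cells and below 0 in B cells. The median log2 ratio of CKO over WT for S phase genes was 0.53 in cycling T cells and -0.23 in cycling B cells. For G2 and mitosis genes it was 0.11 in cycling T cells and -0.36 in cycling B cells. Each lineage has 1 library per genotype, so the difference between lineages was not tested. Cells at the limit of 3 UMIs of Mki67 and Top2a were 34 of 115 WT and 7 of 62 CKO T cells and 5 of 42 WT and 12 of 35 CKO B cells. S phase genes stood at 18.1 (WT) and 53.7 (CKO) UMIs per 10000 in these T cells, against 51.5 and 72.9 over all cycling T cells. In these B cells they stood at 5.82 and 7.09, against 49.6 and 44.2 over all cycling B cells. G2 and mitosis genes stood at 27.1 and 30.3 in these T cells and at 10.5 and 11.4 in these B cells. With at least 6 UMIs, a limit chosen after seeing the data, the S phase medians were 0.35 in T cells and -0.083 in B cells. The G2 and mitosis medians were then -0.052 and -0.27, on the same side of 0, and the T cell median was also below 0 from 5 UMIs and without Trdc cells.

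Some cells outside all comparisons also carried the markers. Of the 306 WT barcodes left out for UMIs, genes or mitochondrial share, 9 had at least 3 UMIs of Mki67 and Top2a, as did 2 of 438 in CKO. The mitochondrial limit alone left out 306 and 437 barcodes.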

How the results depend on the processing

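Of 326 recomputed values for 44 results, 264 stayed within the spread or 1.5 times the count, 59 moved beyond it, and 3 changed the sign of a median whose range excluded 0. Values whose range included 0 changed sign as well. These were the shares of T cells and of cells in neither the T nor the B class that cycled, and Rpa1 in T cells. The share of cycling T cells with any Cd8a or Cd8b1 UMI did so too. So did the interferon (T), plasma cell (B) and p53 (B) medians. Leaving out the highest Scrublet scores or setting the mitochondrial limit to 5% or 20% moved none of those recomputed. The alternatives with at least 6 UMIs, without Trdc cells, without cells of high immunoglobulin, without immunoglobulin in the total and without each gene's highest cell were chosen after seeing the data. Causes were not tested.

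The difference in the share of T cells that cycled was -0.419 points after thinning. T cells among WT cycling cells were 61.9% from 2 UMIs of Mki67 and Top2a and 63.7% after thinning, and among CKO cycling cells 30.2% after thinning. B cells among WT cycling cells were 29.3% when Pclaf, Ccna2 and Rrm2 chose the cells and 26.6% from 6 UMIs. B cells among CKO cycling cells were 31.4% from 2 UMIs, 13.8% by Pclaf, Ccna2 and Rrm2, 43.3% after thinning and 15.1% from 6 UMIs. The difference in the share of cycling T cells with any Cd8a or Cd8b1 UMI was 4.89 points unthinned against -3.96 thinned. That in Trdc share was 28.0 and 11.3. The S phase share difference in T cells was 7.37 points with the 4 times gate, 6.94 after thinning and 12.1 without Trdc cells.

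In T cells, genes higher in CKO numbered 154 at 20 CPM, 19 at 100 CPM and 27 without the highest cell, and genes lower 102, 12 and, with ribosomal and mitochondrial genes out of the total, 62. The S phase median was 0.78 with cells scaled alike, 0.46 with those genes out of the total, 0.37 from 5 UMIs, 0.67 without Trdc cells and 0.35 from 6 UMIs. The G2 and mitosis median changed sign from 5 UMIs (-0.020), without Trdc cells (-0.14) and from 6 UMIs (-0.052). The replication stress median was 0.55 with cells scaled alike, 0.24 from 5 UMIs, 0.53 without Trdc cells and 0.19 from 6 UMIs. The effector median was 0.17 without Trdc cells. The interferon median was -0.34 with cells scaled alike, 0.22 from 5 UMIs and 0.37 from 6 UMIs.

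In B cells, genes higher in CKO numbered 328 at 20 CPM, 42 at 100 CPM, 282 with cells scaled alike and 78 without the highest cell, and genes lower 259, 56 and 247 under the first 3. The S phase median was -0.65 with cells scaled alike, -0.078 from 5 UMIs, -0.083 from 6 UMIs, -0.14 with the 4 times gate, -0.44 without the highest cell and -0.35 without cells of high immunoglobulin. The G2 and mitosis median was -0.68 with cells scaled alike and -0.69 without the highest cell. The histone median was -0.98 and -0.97 under the same alternatives, -0.36 with the 4 times gate and -0.41 from 6 UMIs. The plasma cell median was 0.24 without cells of high immunoglobulin and 0.090 from 6 UMIs. The interferon median was 1.71 with cells scaled alike. Genes higher in cycling than other cells of both libraries numbered 561 in T cells and 485 in B cells at 20 CPM, and genes lower 90 and 438.

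Sampling limits the small classes most, since 35 CKO B cells and 19 CKO T cells with Trdc carry several results, and a gene with no UMI in 35 cells allows a share of cells with a UMI of up to 8.57%. No paired analysis was possible because each genotype has 1 library.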
